A study of Mus musculus with 30 samples.

Results

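The 10 genes described here mark or help to set the preadipocyte state and were followed through the 3 days between reverse transfection and the start of differentiation of 3T3-L1 cells: the transcription factors Zfp423, Zfp521, Ebf1, Ebf2 and Prrx1, the receptors Pdgfra and Pdgfrb, and the surface markers Ly6a, Thy1 and Cd34. The 10 genes were taken by name, with Ensembl identifiers mapped to symbols, from a table of reads scaled to library size (CPM) that holds 55573 genes. Of these 10 genes, 9 are also in the table of read counts, which holds the 12016 genes that reach 1 CPM in at least 20 of the 30 libraries. Cd34 is the exception and is described from the CPM table.

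3T3-L1 is a mouse fibroblast line that becomes adipocytes on hormonal induction. Sub-confluent cells were reverse-transfected 3 days before that point with 50 nM of a non-targeting siRNA pool, here called scramble, or with 50 nM of a pool against Kdm5c, which encodes a histone demethylase that acts on methylated lysine 4 of histone H3. RNA was collected 24 h (day -2), 48 h (day -1) and 72 h (day 0) later, which gave 6 groups of 5 libraries: day -2 scramble, day -2 Kdm5c siRNA, day -1 scramble, day -1 Kdm5c siRNA, day 0 scramble and day 0 Kdm5c siRNA. All groups share the cell line, the transfection and the siRNA dose, no group is untransfected, and the labels do not say whether the 5 libraries of a group came from separate cultures, so p-values measure only the spread between these libraries.

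In fat tissue, adipocytes arise from fibroblast-like progenitors that carry the receptor PDGFRα and, in mice, the surface proteins Sca-1 (from Ly6a), CD34 and CD90 (from Thy1). ZFP423 is a zinc finger protein that commits such cells to the adipocyte fate and raises PPARγ, the receptor that drives adipocyte differentiation. Its paralogue ZFP521 is known to oppose it, EBF1 and EBF2 are helix-loop-helix factors that act in the same programme, EBF2 being linked to brown and beige fat, and PRRX1 is a homeobox protein of mesenchymal progenitors.

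The libraries held 25217905 to 33725717 reads assigned to genes, of which 99.73% to 99.8% fell in the genes of the count table. Kdm5c, the targeted gene, stood at 157 CPM on day -2, 189 CPM on day -1 and 212 CPM on day 0 with scramble, and at 16.2%, 18.9% and 25.2% of those levels with Kdm5c siRNA, with no overlap between libraries of the same day. The share left was highest on day 0. Fibroblast markers summed to 36970 CPM or more in every library. The 8 endothelial markers together gave 2.32 to 7.88 CPM and the 9 haematopoietic markers 2.41 to 9.12 CPM. Tie1 and Erg had a median of 0, Adgre1 was at 0 in all libraries and Ptprc did not exceed 0.0985 CPM. The endothelial markers Kdr and Vwf reached 1.91 and 5.41 CPM, and the haematopoietic markers Csf1r and Cd68 reached 7.48 and 4.17 CPM. The 8 mural cell markers summed to 540 to 2841 CPM, nearly all of it Acta2, and the sums with Kdm5c siRNA lay above those with scramble on each day. The haematopoietic sums with Kdm5c siRNA also lay above those with scramble on day -1, at 4.12 to 5.1 against 3.29 to 4.09 CPM, and on day 0, at 3.72 to 5.52 against 2.41 to 3.47 CPM; the part of these markers in the results below was not tested. Adipoq, Plin1 and Cidec, which mark mature adipocytes, did not exceed 0.181 CPM in any library. Fabp4, the other mature adipocyte marker listed, ranged from 9.73 to 35.1 CPM. Its scramble mean was 11.3 CPM on day -2 and 26.2 CPM on day 0.

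Among the 10 genes, levels can be compared per kilobase of merged exons. On that scale, with scramble, Thy1 was highest on both day -2 and day 0, at 101 and 132 CPM per kb, followed by Pdgfrb at 62.2 and 84.4 and Prrx1 at 42.3 and 69 CPM per kb. Pdgfra went from 12.9 to 52.2 CPM per kb and Ly6a from 16.4 to 51.5 CPM per kb. The other transcription factors were lower: Zfp521 at 6.42 and 12, Ebf1 at 3.73 and 4.59, Ebf2 at 1.44 and 2.67, and Zfp423 at 0.362 and 5.96 CPM per kb. Cd34 was lowest, at 0.0149 and 0.0838 CPM per kb. Zfp423 was below Ebf2 and Ebf1 on day -2 and above both on day 0. The levels of every gene in every library are in the plot of CPM by day and siRNA.

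**Figure D1:**
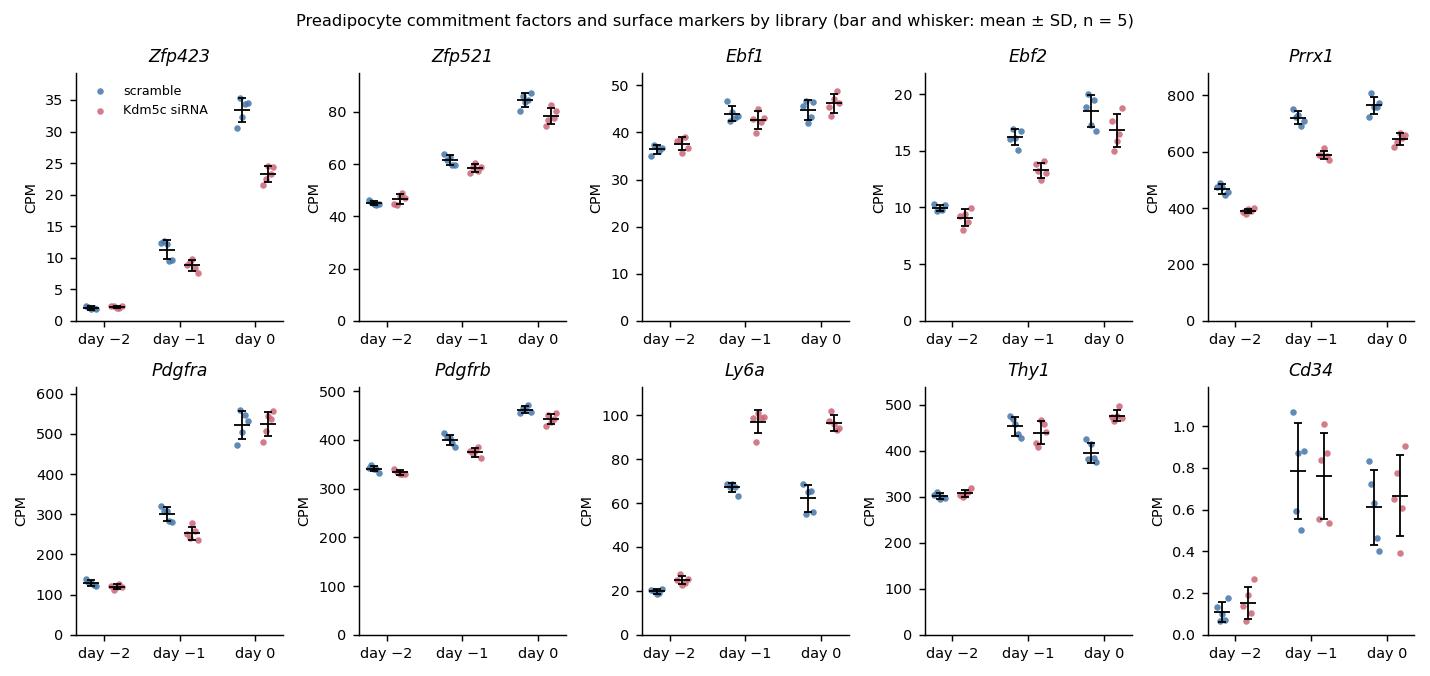
CPM of the 10 genes (y axis, from 0, scale differing by gene) on the 3 days (x axis), with scramble in blue and Kdm5c siRNA in red; points are libraries and black marks give the mean ± SD (n = 5). Zfp423 climbs from 2.03 to 33.4 CPM with scramble and to 23.2 CPM with Kdm5c siRNA, while Ly6a is higher with Kdm5c siRNA on every day.

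Zfp423 showed the greatest rise with time among the 9 tested genes and the deepest fall with Kdm5c siRNA on day 0, so the sequence in front of its start sites is given here. The gene (ENSMUSG00000045333) lies on the minus strand of chromosome 8, at 87661810 to 87959595 of GRCm38 in GENCODE release M21. RefSeq's promoters on GRCm38.p6 give it 2 start sites, 155156 bp apart. The 250 bases before each start, chr8:87959596-87959845 and chr8:87804440-87804689, are printed 5′ to 3′ on the minus strand. Capitals mark the GC box GGGCGG and the core of the EBF recognition sequence, CCCNNGGG, each searched on both strands.
Zfp423, first start: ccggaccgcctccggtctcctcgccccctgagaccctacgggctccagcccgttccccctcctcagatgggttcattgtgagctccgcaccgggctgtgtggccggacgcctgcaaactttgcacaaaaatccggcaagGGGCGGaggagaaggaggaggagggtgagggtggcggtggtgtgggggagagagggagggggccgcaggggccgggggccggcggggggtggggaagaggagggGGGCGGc
Zfp423, second start: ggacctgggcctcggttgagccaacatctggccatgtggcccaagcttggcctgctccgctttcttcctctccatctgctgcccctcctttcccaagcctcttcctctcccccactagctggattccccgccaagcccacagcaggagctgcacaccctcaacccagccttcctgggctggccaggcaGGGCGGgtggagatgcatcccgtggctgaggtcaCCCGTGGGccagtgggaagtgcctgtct
The first window holds GC boxes 111 and 7 bases before the start, 18 CpG dinucleotides and 71.6% G and C. The median over all promoters of this length was 6 CpG, and 78.3% of them had fewer than 18. The second window holds a GC box 62 bases and an EBF core, CCCGTGGG, 28 bases before the start, with 6 CpG and 64.8% G and C. Of 32851 RefSeq promoters 32.7% held the GC box and 11.8% the EBF core, so that these matches are common, and neither is a measured binding site. The table has 7 promoters for 5 of the 10 genes, and the other 5 windows, of Ebf1, Prrx1, Pdgfra and Cd34, hold neither run of letters. The counts add reads from both starts, and which start gave the reads was not measured here.

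With scramble, all 9 tested genes were higher on day 0 than on day -2. Zfp423 rose 16.4-fold, Pdgfra 4.06-fold and Ly6a 3.14-fold, Zfp521 and Ebf2 by 1.87- and 1.85-fold, and Prrx1, Pdgfrb, Thy1 and Ebf1 by 1.63-, 1.36-, 1.32- and 1.23-fold. Time moved most of the transcriptome: 88.2% of the 12016 genes passed an adjusted p of 0.05 (edgeR quasi-likelihood test with Benjamini-Hochberg adjustment) between these days, 44.6% as higher and 43.6% as lower. The median log2 change was 0.85 over the 9 genes and 0.004 over all genes. With Kdm5c siRNA the same days also gave 9 of 9 genes higher, against 43.8% of all genes higher and 87.4% called in either direction.

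The steps differed between genes. From day -2 to day -1 all 9 genes rose with scramble, where 39.5% of all genes did, 39.4% fell and 78.9% were called in all. From day -1 to day 0 only 6 of the 9 rose, against a background of 36.8% of genes higher, 37.9% lower and 74.7% called. Thy1 fell by 0.16 on the log2 scale (SE 0.03, edgeR adjusted p = 6.53e-05). Ly6a changed by -0.08 (SE 0.05) and Ebf1 by 0.06 (SE 0.04), neither of which passed, at edgeR adjusted p = 0.161 and 0.138. Ly6a passed as lower in 6 of 43 alternatives: with library totals alone as scaling (edgeR adjusted p = 0.0405), with no filter on low counts (0.0418), without day 0 scramble replicate 1 (0.0384), and with limma at each of 3 pseudocounts (0.0383 to 0.0412). Ebf1 passed at 0.043 without day 0 scramble replicate 3. Without day -1 scramble replicates 1, 2 and 3, Ly6a was at -0.04 (adjusted p = 0.607) and Thy1 at -0.09 (adjusted p = 0.0452). The comparisons of day -1 with day -2 and of day 0 with day -1 share the day -1 libraries.

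**Figure D2:**
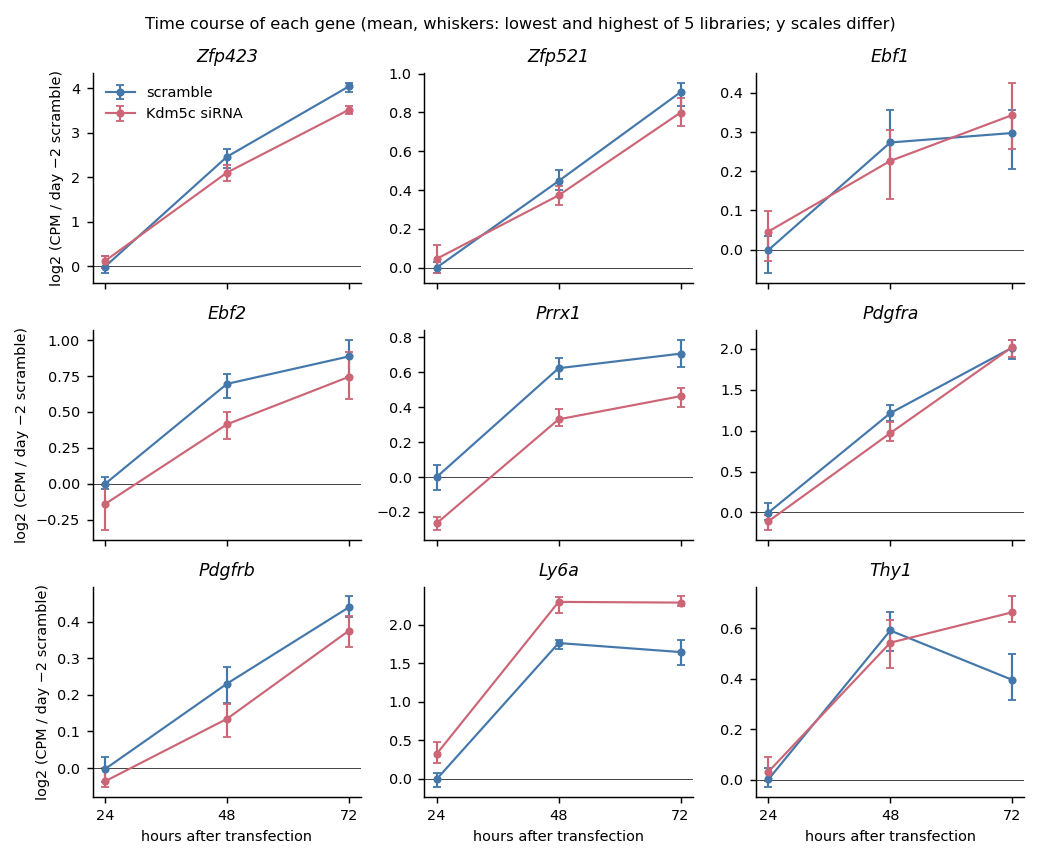
Mean log2 ratio of CPM to the day -2 scramble mean (y axis, scale differing by gene) against hours after transfection (x axis) for the 9 tested genes; whiskers run from the lowest to the highest of 5 libraries, scramble in blue and Kdm5c siRNA in red. Zfp423 and Pdgfra climb through all 3 days, Ly6a levels off after 48 h, and the Thy1 mean goes from 454 to 396 CPM between 48 and 72 h with scramble and from 439 to 477 CPM with Kdm5c siRNA.

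Kdm5c siRNA lowered Prrx1 on all 3 days and Zfp423 on days -1 and 0, raised Ly6a on all 3 days and raised Thy1 on day 0. Ebf1 passed on no day. On day -2, 1 of the 9 genes was higher and 1 lower, where 23.2% of all genes passed, 11.3% as higher and 11.9% as lower. On day -1, 1 was higher and 5 were lower, against 35.6% of all genes called, 18.8% higher and 16.8% lower. Without day -1 scramble replicates 1, 2 and 3, which lay further along the scramble time course than replicates 4 and 5, 1 gene was higher and 2 were lower on day -1, against 21.4% of all genes called. Only scramble replicates 4 and 5 then remain on day -1. With fewer libraries, a call lost in that setting does not show that the difference came from replicates 1 to 3. On day 0, 2 were higher and 5 lower, against 35.5% of all genes, 19.3% higher and 16.2% lower. Libraries of the 2 siRNAs did not overlap for 2, 5 and 4 of the 9 genes on the 3 days, beside 16.1%, 22.3% and 21.7% of all genes. The median log2 change of the 9 genes was 0.04, -0.09 and -0.06, and that of all genes 0.000, 0.002 and 0.003. Every siRNA comparison is of bulk RNA, in which fewer cells of a kind and less RNA per cell cannot be told apart.

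**Figure D3:**
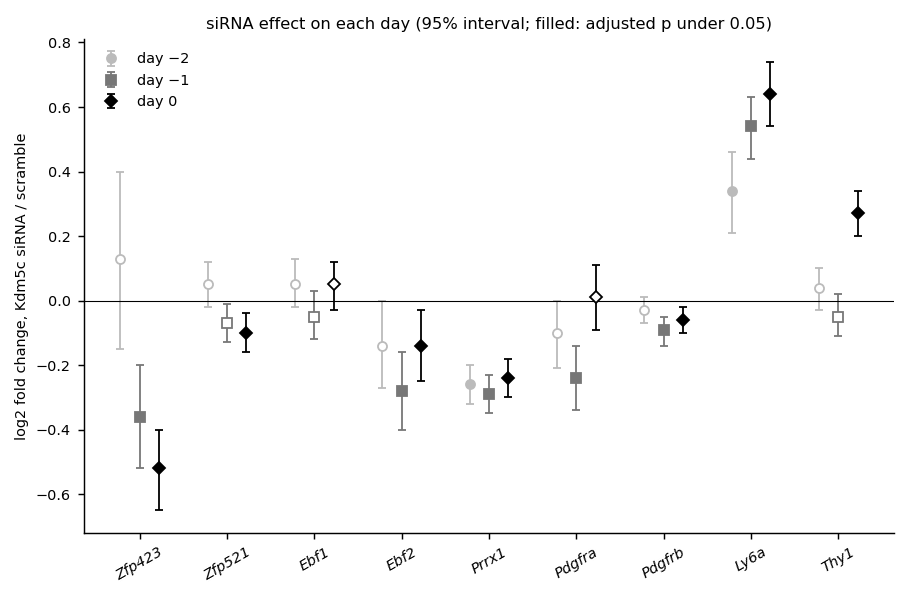
Log2 fold change of Kdm5c siRNA over scramble (y axis) for the 9 tested genes (x axis) on day -2 (pale circles), day -1 (grey squares) and day 0 (black diamonds), with 95% intervals; filled symbols passed an adjusted p of 0.05. Zfp423 goes from 0.13 to -0.52, Prrx1 holds near -0.26, and Ly6a goes from 0.34 to 0.64.

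Libraries also differed in where they lay on an axis drawn from the scramble time course. Each library was placed on the line from the mean day -2 scramble profile (0%) to the mean day 0 scramble profile (100%) in log2 CPM of 12007 genes, with the 9 genes left out. On day -1 the scramble libraries lay at 57.1, 56.2, 56.6, 51.0 and 51.4% and the Kdm5c siRNA libraries at 46.9, 47.1, 50.3, 47.7 and 43.6%. On day 0 the Kdm5c siRNA libraries lay at 89.1% to 94.2%, below all scramble libraries by a narrow margin, which lay at 94.3% to 102.8%. On day -2 the groups overlapped. Because the scramble means define the axis, siRNA changes in genes that move with time also shift a position. A position is therefore not a measure of time in the Kdm5c siRNA libraries. Day -1 scramble replicates 1, 2 and 3 thus stand apart from replicates 4 and 5, and the siRNA results of day -1 below are also given without them, a choice made after seeing the data. The part of this position in the siRNA differences was not tested.

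**Figure D4:**
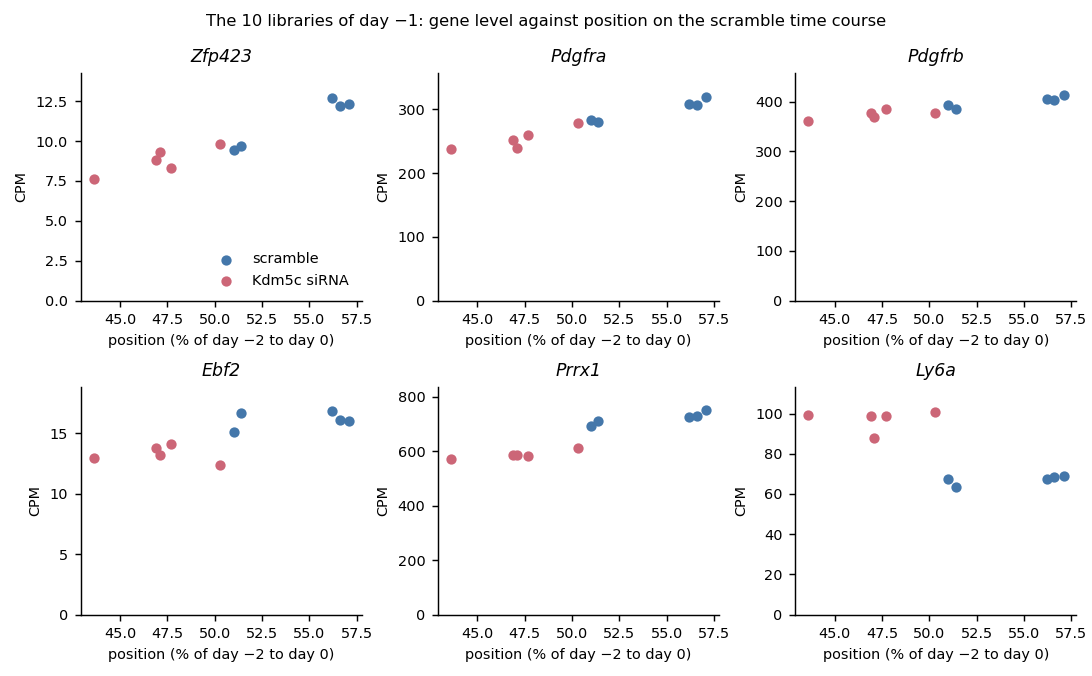
CPM of 6 genes (y axis, from 0) against position between the day -2 and day 0 scramble means (x axis, %) in the 10 libraries of day -1, scramble in blue and Kdm5c siRNA in red. Zfp423 and Pdgfra are higher in the 3 scramble libraries at 56.2% to 57.1% than in the 2 at 51.0% and 51.4%; Prrx1, Ebf2 and Ly6a differ between siRNAs beside these libraries too.

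Among the commitment factors, Zfp423 was low on day -2, and lowest of the 9 tested genes per kilobase. The scramble libraries had 2.40, 2.13, 1.82, 1.99 and 1.83 CPM (2.03 ± 0.24, SD, n = 5) and the Kdm5c siRNA libraries 2.37, 2.34, 1.98, 2.03 and 2.36 CPM (2.21 ± 0.195). These ranges overlapped, and the log2 fold change of 0.13 (SE 0.14, interval -0.15 to 0.40) did not pass at an edgeR adjusted p of 0.554. On day 0 the scramble libraries had 30.6, 35.3, 32.3, 34.3 and 34.6 CPM (33.4 ± 1.94) and the Kdm5c siRNA libraries 21.6, 22.4, 24.6, 23.2 and 24.4 CPM (23.2 ± 1.27). Every Kdm5c siRNA library was below every scramble library. Zfp423 thus stood at 69.5% of its scramble level, a log2 fall of -0.52 (SE 0.06, edgeR adjusted p = 2.62e-08) that passed under each of 43 alternatives.

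On day -1 Zfp423 had 12.3, 12.7, 12.2, 9.44 and 9.69 CPM with scramble and 8.8, 9.33, 9.81, 8.3 and 7.62 CPM with Kdm5c siRNA. The highest Kdm5c siRNA library reached the range of scramble replicates 4 and 5, while replicates 1 to 3 lay above all others. The log2 fold change was -0.36 (SE 0.08, edgeR adjusted p = 0.000357), and -0.13 (SE 0.09, adjusted p = 0.325) without those 3 libraries. The time course was shallower with Kdm5c siRNA, at 10.5-fold from day -2 to day 0 against 16.4-fold with scramble. The difference between the siRNA effects of day 0 and day -2 was -0.65 on the log2 scale (SE 0.15, edgeR adjusted p = 0.00266), and the same value without scramble replicates 1 to 3 of day -1 (adjusted p = 0.000522). From low to high, the groups ran day -2 scramble, day -2 Kdm5c siRNA, day -1 Kdm5c siRNA, day -1 scramble, day 0 Kdm5c siRNA and day 0 scramble, with overlap within days -2 and -1 only.

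Prrx1, the homeobox factor, was lower with Kdm5c siRNA on each day. On day -2 the scramble libraries had 474, 490, 476, 445 and 456 CPM (468 ± 17.8) and the Kdm5c siRNA libraries 385, 379, 395, 389 and 400 CPM (390 ± 8.33). On day -1 they had 750, 724, 729, 691 and 709 CPM (721 ± 22.1) against 587, 587, 613, 583 and 572 CPM (588 ± 15.3). On day 0 they had 724, 807, 758, 757 and 772 CPM (764 ± 30.2) against 617, 633, 666, 649 and 660 CPM (645 ± 20). No Kdm5c siRNA library reached a scramble library of its day. The log2 changes were -0.26, -0.29 and -0.24 (SE 0.03 each), with edgeR adjusted p = 1.47e-08, 5.06e-10 and 2.37e-08, and all 3 calls held under each of 43 alternatives. The change of day -1 was -0.25 (adjusted p = 4.19e-06) without scramble replicates 1 to 3. The difference between the effects of day 0 and day -2 was 0.02 (SE 0.04, interval -0.06 to 0.10, edgeR adjusted p = 0.806). By level, day -1 Kdm5c siRNA and day 0 Kdm5c siRNA both lay below day -1 scramble, and of all neighbours in the order only day -1 and day 0 scramble overlapped.

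Ebf2 was at 10.3, 9.72, 9.89, 9.73 and 10.2 CPM on day -2 with scramble and at 9.26, 7.97, 9.46, 8.72 and 9.92 CPM with Kdm5c siRNA, with overlap (log2 -0.14, SE 0.06, edgeR adjusted p = 0.132). On day -1 it had 16, 16.9, 16.1, 15.1 and 16.7 CPM with scramble and 13.8, 13.2, 12.4, 14.1 and 13 CPM with Kdm5c siRNA. Those groups did not overlap, and Ebf2 fell by 0.28 (SE 0.06, edgeR adjusted p = 0.000232), or by 0.26 (adjusted p = 0.0175) without scramble replicates 1 to 3. On day 0 it had 18.9, 20, 17.3, 19.5 and 16.7 CPM with scramble and 17.6, 15, 15.9, 16.5 and 18.8 CPM with Kdm5c siRNA, which overlapped. The change of -0.14 on day 0 (SE 0.06) had an edgeR adjusted p of 0.0495, and 32 of 43 alternatives lost the call, with adjusted p from 0.0505 to 0.166 in those, while the log2 change ran from -0.18 to -0.10 over all 43. The level order ran from day -2 through day -1 to day 0, and day -1 scramble overlapped day 0 Kdm5c siRNA.

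Zfp521 and Ebf1 moved little with the siRNA. Zfp521 had 80.4, 86.2, 83.8, 84.6 and 87.3 CPM on day 0 with scramble (84.4 ± 2.67) and 74.8, 76.9, 82.8, 77.7 and 80.5 CPM with Kdm5c siRNA (78.5 ± 3.11). The ranges met, with 3 Kdm5c siRNA libraries below every scramble library. Zfp521 fell by 0.10 on day 0 (SE 0.03, edgeR adjusted p = 0.00699), and its changes of 0.05 on day -2 and -0.07 on day -1 did not pass (adjusted p = 0.286 and 0.0682). The day -1 value passed at 0.0446 without scramble replicate 5 and at 0.0457 without Kdm5c siRNA replicate 3, and it was -0.03 (adjusted p = 0.668) without scramble replicates 1 to 3. The effect of day 0 was below that of day -2 by 0.15 (value -0.15, SE 0.04, edgeR adjusted p = 0.0156). Ebf1 ranged from 34.9 to 39 CPM on day -2, from 39.8 to 46.6 CPM on day -1 and from 42 to 48.9 CPM on day 0 over both siRNAs. Its log2 changes were 0.05, -0.05 and 0.05 (SE 0.04 each), with intervals of -0.02 to 0.13, -0.12 to 0.03 and -0.03 to 0.12, and edgeR adjusted p = 0.331, 0.35 and 0.323. The day -1 value was -0.02 (adjusted p = 0.761) without scramble replicates 1 to 3. All 4 groups of days -1 and 0 overlapped their neighbours for Ebf1.

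Of the receptors, Pdgfra, a PDGF receptor that marks adipocyte progenitors, rose with time under both siRNAs. On day -2 it had 140, 132, 129, 123 and 121 CPM with scramble and 122, 111, 120, 126 and 120 CPM with Kdm5c siRNA, and on day 0 473, 559, 505, 546 and 532 CPM against 481, 508, 544, 536 and 557 CPM. Both days overlapped. The log2 change was -0.10 on day -2 (SE 0.05, interval -0.21 to 0.00, edgeR adjusted p = 0.148, and 0.00419 with no filter on low counts) and 0.01 on day 0 (SE 0.05, interval -0.09 to 0.11, adjusted p = 0.905). On day -1 the scramble libraries had 320, 309, 307, 283 and 280 CPM and the Kdm5c siRNA libraries 252, 240, 278, 259 and 237 CPM. No libraries overlapped on day -1, although Kdm5c siRNA replicate 3 at 278 CPM lay close to scramble replicate 5 at 280 CPM. Pdgfra fell by 0.24 on day -1 (SE 0.05, edgeR adjusted p = 0.000177), and without scramble replicates 1 to 3 the value was -0.15 (adjusted p = 0.0763). The difference between day 0 and day -1 effects was 0.25 (SE 0.07, edgeR adjusted p = 0.0208) and did not pass without those libraries, at 0.16 (adjusted p = 0.271).

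Pdgfrb, the receptor for PDGF-BB that also marks mural cells, rose 1.36-fold from day -2 to day 0 with scramble. On day -1 it had 413, 405, 403, 394 and 386 CPM with scramble and 378, 370, 377, 385 and 362 CPM with Kdm5c siRNA, and on day 0 454, 465, 464, 472 and 457 CPM against 429, 450, 436, 442 and 455 CPM. The groups did not overlap on day -1, by a narrow margin, and met on day 0. Pdgfrb fell by 0.09 on day -1 (SE 0.02, edgeR adjusted p = 0.000553; -0.06, adjusted p = 0.119 without scramble replicates 1 to 3) and by 0.06 on day 0 (SE 0.02, adjusted p = 0.0195). The day 0 call was lost without scramble replicate 4 (adjusted p = 0.0688), Kdm5c siRNA replicate 1 (0.0777) or Kdm5c siRNA replicate 3 (0.0541), and with no filter on low counts (0.0555). On day -2 the change was -0.03 (SE 0.02, edgeR adjusted p = 0.344). Of 8 mural markers 4 were tested, with 2 higher and 1 lower on day -1 and 2 and 0 on day 0. The share of all genes called was 35.6% and 35.5%. Acta2, the most abundant, went from 527 to 702 CPM on day 0 (log2 0.42, edgeR adjusted p = 2.36e-11). Cspg4 was lower on day -1, at -0.49 (adjusted p = 0.00852). With scramble, Acta2 fell from 2500 CPM on day -2 to 527 CPM on day 0, while Pdgfrb rose. The other 3 tested mural markers rose between these days, where 44.6% of all genes were higher and 43.6% lower. Notch3 went from 2.01 to 25.7 CPM, Cspg4 from 1.08 to 4.24 CPM and Des from 1.54 to 5.5 CPM. The part of mural markers in the Pdgfrb values was not tested.

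Ly6a encodes Sca-1, a lipid-anchored protein used to sort mouse progenitors, and it was higher with Kdm5c siRNA on every day. On day -2 the scramble libraries had 20.6, 19.8, 18.4, 19.2 and 20.8 CPM (19.8 ± 1.02) and the Kdm5c siRNA libraries 24.8, 27.6, 22.8, 23.6 and 25.3 CPM (24.8 ± 1.81). On day -1 they had 68.8, 67.3, 68.6, 67.3 and 63.4 CPM (67.1 ± 2.18) against 98.9, 88, 101, 98.7 and 99.2 CPM (97.1 ± 5.1). On day 0 they had 68.8, 55, 64.9, 65.6 and 56.1 CPM (62.1 ± 6.14) against 97.2, 102, 95.8, 93.2 and 94.2 CPM (96.6 ± 3.64). All 5 Kdm5c siRNA libraries lay above all 5 scramble libraries on each day. The log2 changes were 0.34 (SE 0.06), 0.54 (SE 0.05) and 0.64 (SE 0.05), with edgeR adjusted p = 0.00011, 6.28e-11 and 1.33e-12. All 3 calls held under each of 43 alternatives, and the day -1 value was 0.57 without scramble replicates 1 to 3. The effect of day 0 exceeded that of day -2 by 0.30 (SE 0.08, edgeR adjusted p = 0.00661). Day 0 and day -1 overlapped within each siRNA, and these pairs were the neighbours in the level order that could not be separated.

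Ly6a is an interferon-responsive gene, and interferon-stimulated genes moved in these libraries. The 20 listed genes summed to 336 to 846 CPM with scramble and 478 to 1225 CPM with Kdm5c siRNA on day -2, to 629 to 1068 and 523 to 809 CPM on day -1, and to 1368 to 1754 and 922 to 1269 CPM on day 0. The counts higher and lower with Kdm5c siRNA were 2 and 0 on day -2 and 0 and 2 on day -1, and the median log2 change was 0.38, -0.34 and -0.50 on the 3 days. Without day -1 scramble replicates 1 to 3, the day -1 median was -0.63, with 0 higher and 2 lower. Among all genes 23.2%, 35.6% and 35.5% were called on the 3 days, 16.2% as lower on day 0. On day 0, 9 of the 20 were lower with Kdm5c siRNA and none higher, among them Mx1, from 20.1 to 10.8 CPM, and Stat2, from 251 to 170 CPM, while Ly6a was higher. Their part in the Ly6a values was not tested. Of 16 other listed genes of the Ly6 family only 2 were in the count table. Ly6c1 rose from 29 to 50.5 CPM on day -1 (log2 0.80, SE 0.06, edgeR adjusted p = 1.83e-13) and from 21.1 to 43.4 CPM on day 0 (1.04, SE 0.06, adjusted p = 9.82e-16), and Ly6e fell by 0.12 on day 0 (adjusted p = 0.0413). The day -1 value of Ly6c1 was 0.76 (edgeR adjusted p = 6.88e-09) without scramble replicates 1 to 3. Since these paralogues resemble each other in sequence, the values of Ly6a and Ly6c1 rest on how reads that match several family members were given out, a rule that the labels do not state.

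Thy1 encodes CD90, another lipid-anchored surface protein of fibroblasts. With scramble it had 304, 311, 295, 299 and 297 CPM on day -2, 477, 469, 458, 437 and 428 CPM on day -1 and 425, 383, 414, 385 and 375 CPM on day 0. With Kdm5c siRNA it had 304, 300, 304, 310 and 320 CPM, then 418, 409, 467, 459 and 442 CPM, then 474, 464, 476, 498 and 472 CPM. The siRNAs overlapped on days -2 and -1 and did not overlap on day 0, when the scramble mean was 396 CPM, down from 454 CPM on day -1, and the Kdm5c siRNA mean 477 CPM, against 439 CPM on day -1. Thy1 was higher by 0.27 on day 0 (SE 0.03, edgeR adjusted p = 1.04e-07), and its changes of 0.04 and -0.05 on days -2 and -1 did not pass (adjusted p = 0.496 and 0.301). The day -1 value was 0.02 (adjusted p = 0.771) without scramble replicates 1 to 3. The effect of day 0 exceeded that of day -1 by 0.32 (SE 0.05, edgeR adjusted p = 4.48e-05; 0.25, adjusted p = 0.00604 without day -1 scramble replicates 1 to 3) and that of day -2 by 0.23 (SE 0.05, adjusted p = 0.000758). Apart from the step between day -2 and the later days, neighbouring groups in the Thy1 order overlapped.

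Cd34, the sialomucin of haematopoietic, endothelial and adipose progenitors, was barely present. It had 445 reads in all 30 libraries together, 2 to 30 in each, and reached 1 CPM in 2 libraries. Its mean was 0.109 CPM with scramble and 0.153 CPM with Kdm5c siRNA on day -2, 0.785 and 0.761 CPM on day -1, and 0.611 and 0.667 CPM on day 0. A count of 0 would have allowed up to 0.089 to 0.119 CPM in these libraries, so the day -2 means lay close to that limit. Tested on whole reads recovered from the CPM values, Cd34 rose by 2.37 on the log2 scale from day -2 to day 0 with scramble (SE 0.36, edgeR adjusted p = 3.07e-07) and showed no siRNA change that passed on days -2, -1 or 0 (adjusted p = 0.589, 0.927 and 0.759). The siRNA intervals were wide, at -0.54 to 1.46, -0.51 to 0.43 and -0.39 to 0.64.

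Whether the siRNA effects differed between days was tested directly. Between day 0 and day -2, 2 of the 9 genes differed upward, Ly6a and Thy1, and 2 downward, Zfp423 and Zfp521, where 16.1% of all genes passed, 9.95% upward and 6.18% downward. Between day 0 and day -1, Pdgfra and Thy1 differed upward and none downward, where 5.87% of all genes passed, 4.06% upward and 1.81% downward. Without day -1 scramble replicates 1, 2 and 3, Thy1 remained upward, Pdgfra did not pass, and Zfp423 passed downward at -0.40 (SE 0.10, edgeR adjusted p = 0.0228), against -0.16 (adjusted p = 0.384) with all libraries. Between day -1 and day -2, edgeR called 0 of the 9 genes, where 3.56% of all genes passed, 2.14% upward and 1.42% downward; 4 had an unadjusted p under 0.05, and DESeq2 and limma called 1 each, Zfp423. Without day -1 scramble replicate 4 or 5, edgeR called Zfp423 as well, at adjusted p = 0.0298 or 0.0394.

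Genes around these factors were read from lists. As background, 23.2%, 35.6% and 35.5% of all genes were called on days -2, -1 and 0. On day -1 without scramble replicates 1 to 3 the share was 21.4%. Of 20 other progenitor transcription factors 14 were tested. Kdm5c siRNA gave 2 higher and 0 lower on day -2, 1 and 2 on day -1, and 2 and 4 on day 0, with a median log2 change of -0.01, -0.04 and -0.04 beside all-gene medians of 0.000, 0.002 and 0.003. Prrx2, the paralogue of Prrx1, fell by 0.26 on day -1 and by 0.24 on day 0 (SE 0.05 each, edgeR adjusted p = 0.000177 and 0.000456); without day -1 scramble replicates 1 to 3 its day -1 value was -0.11 (adjusted p = 0.194). Twist2 rose by 0.25 on day -1 (adjusted p = 2.71e-06, and 0.00126 without those replicates), and on day 0 Zfp467, a zinc finger factor that favours adipocytes over bone, rose by 0.21 (adjusted p = 0.00037) while Twist1 fell by 0.17 (adjusted p = 0.00144). Of 13 listed adipogenic and thermogenic genes 6 were tested, with 2 higher and 0 lower on day -2, 1 and 1 on day -1 and 2 and 1 on day 0 (medians 0.06, -0.08 and -0.06). Pparg, a target of ZFP423, rose by 0.11, 0.11 and 0.09 on the 3 days (edgeR adjusted p = 0.0117, 0.00825 and 0.0462), and without those replicates its day -1 value was 0.09 (adjusted p = 0.169) and 0 of the 6 genes passed on day -1 (median 0.13). On day 0 Fabp4 rose by 0.30 (adjusted p = 0.00151) and Cebpd fell by 0.35 (adjusted p = 0.0252).

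Of 17 listed genes of the BMP pathway, which acts upstream of ZFP423, and of ZFP423 regulation, 13 were tested. With Kdm5c siRNA 1, 4 and 3 were higher and none lower on the 3 days (median log2 change 0.01, 0.09 and 0.03). Among all genes 11.3%, 18.8% and 19.3% were higher, and 23.2%, 35.6% and 35.5% were called. The only listed gene called on day -2 was Ccn5, which is listed for ZFP423 regulation and was also called on days -1 and 0. Ccn5 (WISP2) encodes a protein known to hold ZFP423 outside the nucleus. Its mean went from 74 to 92.2 CPM on day -2 and from 67.7 to 83.4 CPM on day -1. On day 0 Ccn5 went from 50.2 to 72.5 CPM. Its log2 rises were 0.32, 0.30 and 0.53 (SE 0.04 each, edgeR adjusted p = 2.16e-08, 4.19e-08 and 4.12e-13). Smad7, Smad4 and Acvr1 rose on day -1 by 0.19, 0.10 and 0.12. Without day -1 scramble replicates 1 to 3 they did not pass (edgeR adjusted p = 0.162, 0.156 and 0.167), and of the 13 genes Ccn5 alone did, at 0.30 (adjusted p = 2.87e-05). The BMP targets Id1 and Id3 rose on day 0 by 0.26 and 0.20 (edgeR adjusted p = 0.00269 and 0.00465).

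Among PDGF ligands and signalling genes, 15 of 16 were tested, with 1 higher and 5 lower on day -2, 7 and 4 on day -1 and 8 and 5 on day 0 (medians -0.04, 0.05 and 0.06). The share of all genes called was 23.2%, 35.6% and 35.5%. The ligand Pdgfb rose from 8.8 to 12 CPM on day -1 (log2 0.44, edgeR adjusted p = 1.03e-05) and from 5.2 to 9.16 CPM on day 0 (0.82, adjusted p = 1.15e-09), and Pdgfa from 58.7 to 72.6 CPM on day -1 (0.31, adjusted p = 1.82e-07). Lrp1, an endocytic partner of PDGFRβ, fell by 0.19 on day -2 and by 0.21 on day -1, and Nrp1, a co-receptor, fell by 0.31 on day 0. With day -1 scramble replicates 1 to 3 left out, the day -1 counts were 5 higher and 4 lower, with Pdgfb at 0.33 (edgeR adjusted p = 0.0112), Pdgfa at 0.32 (5.96e-05) and Lrp1 at -0.19 (3.33e-06).

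Of 22 other surface markers of stromal cells, 15 were tested, with 6 higher and 1 lower on day -2, 7 and 4 on day -1 and 6 and 2 on day 0 (medians 0.10, 0.09 and 0.11). Beside these counts, 23.2%, 35.6% and 35.5% of all genes were called. Mcam (CD146), an adhesion molecule of perivascular cells, rose from 17.2 to 21.9, from 9.18 to 18.9 and from 2.55 to 7.21 CPM on the 3 days, the day -2 and day -1 steps being 0.35 and 1.04 on the log2 scale (edgeR adjusted p = 0.000253, 6.10e-13 and 8.27e-13). The hyaluronan receptor Cd44 rose by 0.29 on day -1 and by 0.42 on day 0, and F3 (CD142) fell by 0.23 on day -1. Leaving out day -1 scramble replicates 1 to 3 gave day -1 counts of 6 higher and 2 lower, with Mcam at 1.05 (edgeR adjusted p = 9.47e-09), Cd44 at 0.23 (1.36e-05) and F3 at -0.16 (0.000353). Dpp4, a marker of interstitial progenitors, did not exceed 0.038 CPM in any library.

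The genes whose log2 CPM tracked each member most closely over the 30 libraries, among 10581 compared, are given as a description, since the libraries share days and siRNA. Slc8a1 and Zfp36l1 lay nearest to Zfp423 (Pearson r = 0.997 and 0.996), Abhd4 and Sned1 to Pdgfra (0.997 each), Gpc4 and Lama4 to Zfp521 (0.994 each), and Sgk1 and Rxra to Prrx1 (0.991 and 0.986). Wdr81 and Hexa lay nearest to Pdgfrb (0.990 each), Fsd1 and Lrrc15 to Ly6a (0.977 and 0.976), Exoc7 and Gpsm2 to Ebf2 (0.977 each), and Kcnd1 and Ank3 to Thy1 (0.966 each). Ebf1 had the loosest match, with Crbn at 0.921 and Pcdhb15 at 0.916. Among the 9 genes themselves, Zfp423 and Pdgfra had r = 0.99, Ly6a and Thy1 0.95, and Pdgfrb and Ly6a 0.63, the lowest.

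The other genes lie, on GRCm38, at 13687013 to 13972787 of chromosome 18 (Zfp521, minus strand), 44617317 to 45008091 of chromosome 11 (Ebf1, plus), 67233292 to 67430918 of chromosome 14 (Ebf2, plus), 163245119 to 163313710 of chromosome 1 (Prrx1, minus), 75152292 to 75198215 of chromosome 5 (Pdgfra, plus), 61045150 to 61085061 of chromosome 18 (Pdgfrb, plus), 74994877 to 74998031 of chromosome 15 (Ly6a, minus), 44043384 to 44048579 of chromosome 9 (Thy1, plus) and 194938819 to 194961279 of chromosome 1 (Cd34, plus). All 10 are protein-coding. Exons of Ebf2, Pdgfra and Cd34 overlap antisense genes, Gm10860 at up to 0.076 CPM, Gm42802 at up to 0.838 CPM and Gm16897 at up to 0.21 CPM. For Cd34 that is within the range of its own day -2 levels, and whether strand was used in counting is not given in the sources used here.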

How the data were processed

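Strand-specific mRNA libraries of 3T3-L1 cells were mapped with STAR 2.7.2a to GRCm38 and handled with edgeR 3.26.8, per the submitters' processing notes; which read counter and annotation were used is not stated there. The deposited CPM table gives reads per gene scaled to the total assigned to genes, and the deposited count table, although named as normalized, holds whole-number read counts of genes that reach 1 CPM in at least 20 libraries. Whole reads were recovered from 100.0% of the nonzero CPM values (within 0.05 reads) and equalled the counts. All 30 columns were used (0 were unmapped), and 12010 of the 12016 identifiers matched GENCODE M21, which gave symbols, coordinates and exon lengths.

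Counts of all 12016 genes and 30 libraries were fitted in R 4.3.3 with edgeR 4.0.16 (TMM scaling, quasi-likelihood test, 1 coefficient per group, 24 residual degrees of freedom), and p-values were adjusted over all genes by Benjamini and Hochberg; a call is an adjusted p under 0.05. The test was checked on simulated data. Alternatives were other scalings, no or a stricter filter, DESeq2 1.42.0, limma 3.58.1 on log2(CPM + 0.5, 0.1 or 2), a replicate block, only the libraries compared, leaving out each library and, chosen after seeing the data, the recovered reads and the omission of day -1 scramble replicates 1, 2 and 3. The recovered reads of 15135 genes gave 2666, 4345 and 4383 siRNA calls on the 3 days. From each list the text draws on up to 4 genes with the smallest adjusted p among those called, and for each of the 9 genes on the 2 genes with the highest Pearson r among genes averaging at least 2 CPM, with predicted models, pseudogenes and genes without a symbol left out. The genes and lists were chosen with earlier results of these data known. The 95% intervals come from the edgeR fit and cover the spread between libraries, while the limit set by 0 reads (3 reads) covers counting error only.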

Additional observations from a re-analysis of the deposited data

Results flagged for a closer look

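In the siRNA effects on Zfp423, Zfp521, Ly6a, Thy1 and Pdgfra, the log2 difference between days was itself past an adjusted p of 0.05 in edgeR. From day -2 to day 0 the effect moved by -0.65 for Zfp423 (adjusted p = 0.00266), by -0.15 for Zfp521 (0.0156), by 0.30 for Ly6a (0.00661) and by 0.23 for Thy1 (0.000758). From day -1 to day 0 it moved by 0.32 for Thy1 (adjusted p = 4.48e-05) and by 0.25 for Pdgfra (0.0208). Of these, Pdgfra alone lost the call in any alternative run, without day -1 scramble replicates 1, 2 and 3.

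For Ly6a on day -1, 1 library in each siRNA group lay below the other 4. With scramble, replicate 5 had 63.4 CPM against 67.3 to 68.8 CPM. With Kdm5c siRNA, replicate 2 had 88 CPM against 98.7 to 101 CPM. Of 60 groups of 5 libraries looked at, these 2 were marked, where chance alone marks about 1 in 20, or 3 of the 60.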

How the results depend on the processing

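Over 43 alternatives, 30 of them leaving out 1 library each, 1119 of 1161 siRNA values of the 9 genes stayed called or not called as before. A call was lost by 39 and gained by 3, and 0 calls reversed. Small values that were not called could change sign, such as Thy1 on day -1, which ran from -0.07 to 0.02. The losses were Ebf2 on day 0 (32), Pdgfrb on day 0 (4) and Zfp423, Pdgfra and Pdgfrb on day -1 (1 each, without scramble replicates 1, 2 and 3). The gains were Pdgfra on day -2 with no filter on low counts (adjusted p = 0.00419) and Zfp521 on day -1 without scramble replicate 5 or Kdm5c siRNA replicate 3. Without those replicates, 3 of the 9 genes and 2568 of all genes were called on day -1, 174 genes differed in effect between days -1 and -2, and 447 between days 0 and -1. With no filter on low counts 754 genes differed between days -1 and -2, and 3 of the 9 did. DESeq2 and limma with each pseudocount called 1 of the 9 there, and leaving out 1 library called 0 to 1. The cause of these shifts was not tested.

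Replicate numbers did not pair the libraries: of 15 same-numbered pairs, deviations from the group means correlated at -0.22 to 0.3, 4 were over 0.1, and 4 correlated best with their own number. With a replicate block 2701, 4187 and 4205 genes were called on the 3 days, against 2788, 4272 and 4262, and 2, 6 and 6 of the 9 genes, Ebf2 on day 0 being the call lost. Depth limits Cd34, at 2 to 30 reads a library, more than any of the other 9 genes.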
